A study of Saccharomyces cerevisiae with 12 samples.

Results

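Chromosome XII of budding yeast carries the rDNA, the tandem array of ribosomal RNA genes, on its right arm. The genes described here are those between the left end of the chromosome and that array. Members were chosen by systematic name and by mean level, as all IDs that start with YLL together with YLR001 to YLR153, with a mean of at least 1 FPKM (sequenced fragments scaled by transcript length and by the mapped fragments of the library) over the 12 libraries. The deposited table held 231 genes of this stretch, of which 223 reached that mean and 8 did not, and the rule left out 19 others by name. This left 204 members of the 6572 genes tested and of the 7126 genes in the table. The members just inside the threshold were *YLL006W-A* at 1.17 and *YLL047W* at 1.18 mean FPKM, and the genes just outside it were *PAU18* at 0.828 and *RRT7* at 0.666. Of the members, 1 had a mean under 1 FPKM over the 9 libraries that were not *ulp2* null 50G, so it passed through that group. In the R64 annotation 189 members were found, between bases 14648 and 447575 of chromosome XII, on both sides of the centromere (150828 to 150947) and short of the first rRNA base (451786). The other 15 IDs are not in that annotation and have no coordinates here.

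RNA was sequenced from cells of 4 groups with 3 libraries each: *ulp2* null cells after 500 and after 50 generations of passaging (500G and 50G), and WT cells after 500 and after 50 generations. Every group carried the same chromosomal deletion, *ulp2Δ::HIS3*, in the MHY1379 background. By the study's description, the *ulp2* null cells were cured of a *URA3* plasmid bearing *ULP2* on plates with FOA. They were then given the empty vector YCplac33, and the generations up to 50G passed during these steps. The study names its WT control MHY1379, a strain that holds *ULP2* on YCplac33. It lists cells with *ULP2* reintroduced as a separate strain. The longer passaging was by daily dilution in rich medium, and RNA was taken in mid-exponential growth. Whether the 3 libraries of a group came from separately passaged lines is not stated, so the p-values measure the spread between these libraries only. As a check of the labels, *ULP2* itself was listed at 0.0543, 0.412 and 0.995 FPKM in the *ulp2* null cells at 500G. At 50G these cells had it at 0.0926, 0 and 0.118 FPKM. It stood at 161.8 to 202.3 FPKM in WT 500G and at 205.8 to 216.6 FPKM in WT 50G libraries. The median FPKM over tested genes lay between 42.1 and 46.4 in the 12 libraries, and the depth of the libraries is unknown, since the table holds no counts.

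Ulp2 is a protease that takes the small protein SUMO off other proteins, above all where SUMO has formed chains. The study followed how yeast adapts to its loss, shortly after and over long culture, including changes in chromosome number. When a yeast cell gains a copy of a chromosome, RNA from most of its genes usually rises about in proportion to the added copy, while single genes can rise more or less because their own regulation also changes. These libraries measured RNA and not DNA, so the number of chromosome copies and the RNA made per copy cannot be told apart here. The stretch was proposed as a group with results of these libraries known, so the counts and medians over its members are a description.

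At 50 generations the genes left of the rDNA stood higher in *ulp2* null than in WT cells almost throughout. Members had a median log2 change of 0.71 on the log2(FPKM + 1) scale, a 1.63-fold change, with quartiles at 0.55 and 0.94. Past an adjusted p of 0.05 (limma, adjusted over all 6572 genes), 176 of 204 members rose, against 18.7% of all tested genes, and 2 fell, against 18.1% of all tested genes. For 186 members all 3 *ulp2* null libraries lay above all 3 WT libraries, which held for 26.2% of all tested genes. The median over all tested genes was -0.02, and the single medians of the 14 chromosomes other than I and XII ran between -0.11 and 0.01. The genes of chromosome XII right of the rDNA had a median of 0.68 (334 genes), and those of chromosome I had a median of 0.59 (116 genes). Set against the genes of the 14 other chromosomes, the members' median stood 0.77 higher, which is 1.70-fold. A change of 1 on this scale is a 2-fold change, and 46 members rose by more than that, against 3.86% of all tested genes.

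The single libraries of a group lay close together. Over the 204 members, the median log2 level relative to each gene's WT 50G mean was 0.74, 0.73 and 0.71 for *ulp2* null 50G, against -0.01, 0.01 and -0.01 for WT 50G. After 500 generations it was -0.04, 0.01 and -0.01 for *ulp2* null cells, against 0.02, -0.0004 and -0.01 for WT cells. The *ulp2* null 50G libraries thus stood apart from the other 9, which overlapped. The members' share of the summed FPKM of a library was 2.40% to 2.53% in *ulp2* null 50G libraries and 1.43% to 1.45% in WT 50G libraries. At 500G it was 1.22% to 1.28% in *ulp2* null and 1.20% to 1.35% in WT libraries.

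**Figure D1:**
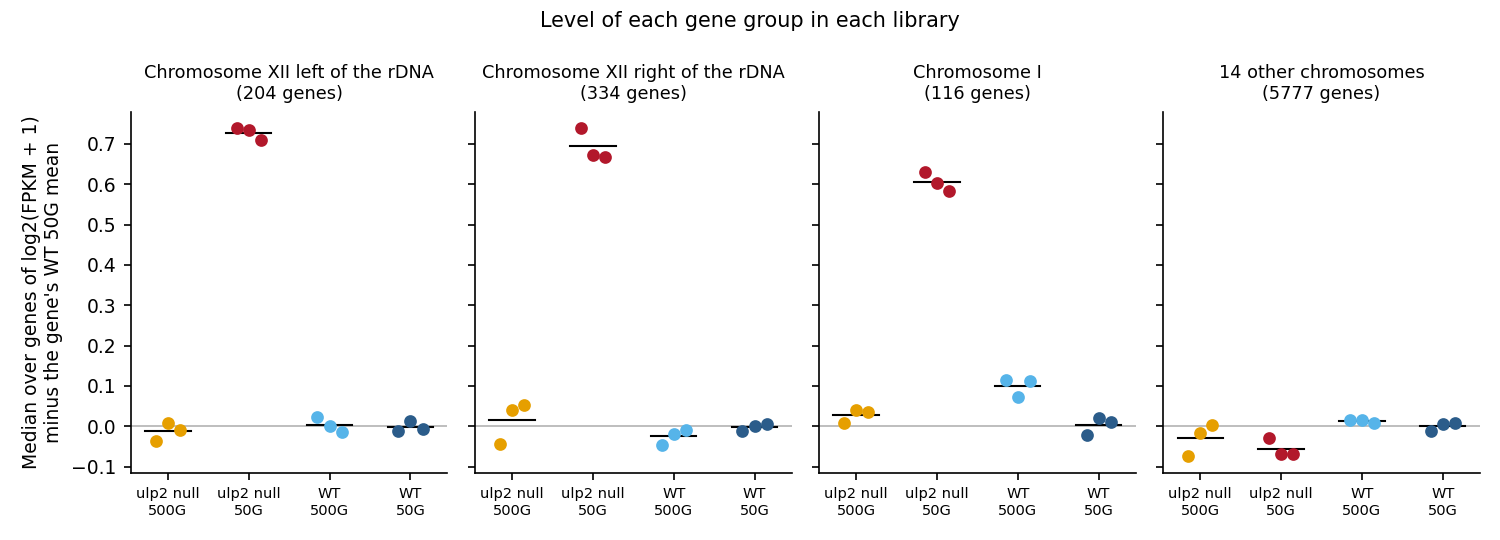
Each point is a library, 3 per group, and the vertical axis is the median over genes of log2(FPKM + 1) after subtracting the gene's WT 50G mean, with a line at the mean of the 3. In the panel of the 204 members the *ulp2* null 50G libraries lie at 0.71 to 0.74 and the other 9 between -0.04 and 0.02.

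Among members with a mean of at least 100 FPKM, the 3 whose change lay nearest to the median were *UBI4*, *POM33* and *FYV7*. *UBI4*, which encodes a chain of ubiquitin repeats needed under stress, had 1073, 1100 and 1108 FPKM in *ulp2* null 50G and 645.0, 670.5 and 692.0 FPKM in WT 50G libraries. The groups did not overlap, and the log2 change was 0.71 ± 0.063 (SE; adjusted p = 1.05e-05, limma). *POM33*, which encodes a membrane protein of the nuclear pore, had 321.5, 274.4 and 244.9 FPKM in *ulp2* null 50G and 185.3, 161.2 and 159.7 FPKM in WT 50G libraries, a log2 change of 0.72 ± 0.13 (SE; limma, adjusted p = 0.00151). *FYV7*, whose nucleolar product is needed to mature the 18S rRNA, had 108.8, 143.9 and 151.3 FPKM in *ulp2* null 50G and 58.2, 95.7 and 99.8 FPKM in WT 50G libraries. Its replicate 1 was the lowest of the 3 in both groups, and its log2 change of 0.69 ± 0.32 (SE) did not pass the test (limma, adjusted p = 0.121). Of the 204 members, 118 (57.8%) lay within 0.25 of the median. That share was not counted for other genes, but those of the 14 other chromosomes had quartiles at -0.26 and 0.17 around a median of -0.06. A member was called departing when its log2 change differed from the members' median by more than 0.5 and its own 95% interval did not hold that median. By that description 27 departed above, 9 departed below and 168 did not depart. No share of other genes departing by the same rule is given here. The interquartile range of the change was 0.39 over members and 0.43 over the 14 other chromosomes. It was 0.51 over chromosome XII right of the rDNA and 0.49 over chromosome I. The 19 genes that the rule leaves out had an interquartile range of 0.63. No gene was left out by name from the other sets, so these spreads are not of like sets.

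Among the members above the shift, *AFB1*, whose product blocks the mating pheromone a-factor in alpha cells, had 63.1, 78.2 and 77.0 FPKM in *ulp2* null 50G and 17.0, 18.2 and 19.1 FPKM in WT 50G libraries. Its log2 change was 1.94 ± 0.14 (SE; limma, adjusted p = 2.67e-06). *JLP1*, which encodes an iron-dependent enzyme that frees sulfur from sulfonates, had 48.9, 50.5 and 46.2 FPKM in *ulp2* null 50G and 13.8, 15.2 and 13.8 FPKM in WT 50G libraries. It rose by 1.70 ± 0.095 (SE; limma, adjusted p = 5.98e-07). *YEH1*, which encodes a hydrolase that releases sterols from steryl esters, had 38.7, 42.3 and 37.8 FPKM in *ulp2* null 50G and 12.3, 11.4 and 11.6 FPKM in WT 50G libraries. Its log2 change was 1.67 ± 0.11 (SE; limma, adjusted p = 1.80e-06). In all of these genes the groups stood far apart, with the lowest *ulp2* null library over the highest WT library. *YLR012C*, which encodes a protein of unknown function, had 29.0, 37.1 and 24.1 FPKM in *ulp2* null 50G and 6.59, 8.86 and 7.82 FPKM in WT 50G libraries, a log2 change of 1.81 ± 0.31 (SE; limma, adjusted p = 0.000964).

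The 4 other most departing members above the shift are IDs without an entry in the R64 annotation used here. *YLR120W-A* had the largest change among them, with 621.1, 726.6 and 689.0 FPKM in *ulp2* null 50G and 130.1, 204.9 and 143.6 FPKM in WT 50G libraries (2.11 ± 0.37, SE; limma, adjusted p = 0.00103). *YLR041W* rose by 1.81 ± 0.22, *YLR062C* by 1.78 ± 0.15 and *YLL044W* by 1.66 ± 0.18 (SE). *YLR041W* is numbered next to *AFB1* (*YLR040C*). *YLR062C* and *YLL044W* are numbered next to the ribosomal protein genes *RPL22A* (*YLR061W*) and *RPL8B* (*YLL045C*), and *YLR076C*, which rose by 1.21, next to *RPL10* (*YLR075W*). Those 3 ribosomal protein genes are among the 19 that the rule leaves out. *RPL8B* changed by 1.91 ± 0.18 and *RPL10* by 0.98 ± 0.10 (SE), both past the test. *RPL22A* had a mean of 3.43 FPKM against 296.9 FPKM for *YLR062C*, and its change of 0.94 ± 0.48 (SE) had an adjusted p of 0.152 (limma). Reads were counted by strand, and without coordinates for these IDs it was not tested whether they share reads with their neighbours. Of the 15 members outside the annotation 6 departed above and none below, and their median change was 1.20, against 0.69 for the 189 members in the annotation. One of them, *YLR149C-A*, had the highest change of all members, 3.59, with an SE of 2.9 (limma, adjusted p = 0.367). It was listed at 580.7, 362.5 and 165.9 FPKM in *ulp2* null 50G and at 0, 259.4 and 77.3 FPKM in WT 50G libraries, so that the groups overlapped.

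Below the shift, 2 members fell. *NRS1*, whose small nuclear protein promotes entry into the cell cycle when nitrogen is poor, had 79.3, 76.1 and 82.4 FPKM in *ulp2* null 50G and 97.4, 127.7 and 108.2 FPKM in WT 50G libraries. It fell by 0.47 ± 0.13 on the log2 scale (SE; limma, adjusted p = 0.0165). Without *ulp2* null 50G replicate 2 the adjusted p of *NRS1* was 0.0581, and without WT 50G replicate 2 it was 0.0710. *ACS2*, which encodes the acetyl-CoA synthetase that supplies acetyl groups in glucose-grown cells, had 221.2, 186.8 and 185.6 FPKM in *ulp2* null 50G and 284.0, 261.4 and 248.1 FPKM in WT 50G libraries. It fell by 0.42 ± 0.088 (SE; limma, adjusted p = 0.00347). In both genes all *ulp2* null 50G libraries lay under all WT 50G libraries.

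The other members below the shift stood near their WT level. *ERG3*, which encodes the sterol C-5 desaturase of ergosterol synthesis, had 218.1, 177.4 and 184.9 FPKM in *ulp2* null 50G and 234.0, 190.2 and 196.4 FPKM in WT 50G libraries, overlapping, with a log2 change of -0.10 ± 0.13 (SE). *LOT6*, which encodes a quinone reductase, had a log2 change of -0.08 ± 0.12 (SE), with 32.5 to 35.9 FPKM in *ulp2* null 50G and 32.5 to 37.9 FPKM in WT 50G libraries. *MMM1*, a subunit of the complex that tethers the endoplasmic reticulum to mitochondria, had 65.1, 64.9 and 60.9 FPKM in *ulp2* null 50G and 67.8, 53.1 and 54.8 FPKM in WT 50G libraries. Its groups overlapped as well, at a log2 change of 0.13 ± 0.091 (SE), and without WT 50G replicate 1 it passed the test (0.23, limma, adjusted p = 0.0332). *HIF1*, which encodes a histone chaperone of the HAT-B acetyltransferase complex, had 63.3, 72.0 and 68.5 FPKM in *ulp2* null 50G and 57.9, 60.5 and 59.2 FPKM in WT 50G libraries. Its change of 0.19 ± 0.068 (SE) passed the test by little (limma, adjusted p = 0.0454), and its adjusted p ran between 0.0126 and 0.152 over the alternatives tried. The call of *HIF1* was lost when any of 10 libraries was left out in turn. *RAX2*, needed to keep the pattern of bud sites, changed by 0.18 ± 0.078, and *GAL2*, the galactose permease, by 0.20 ± 0.20 (SE), neither past the test. *YLR035C-A*, at a mean of 1.25 FPKM, was the other member below the shift, at -0.21.

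**Figure D2:**
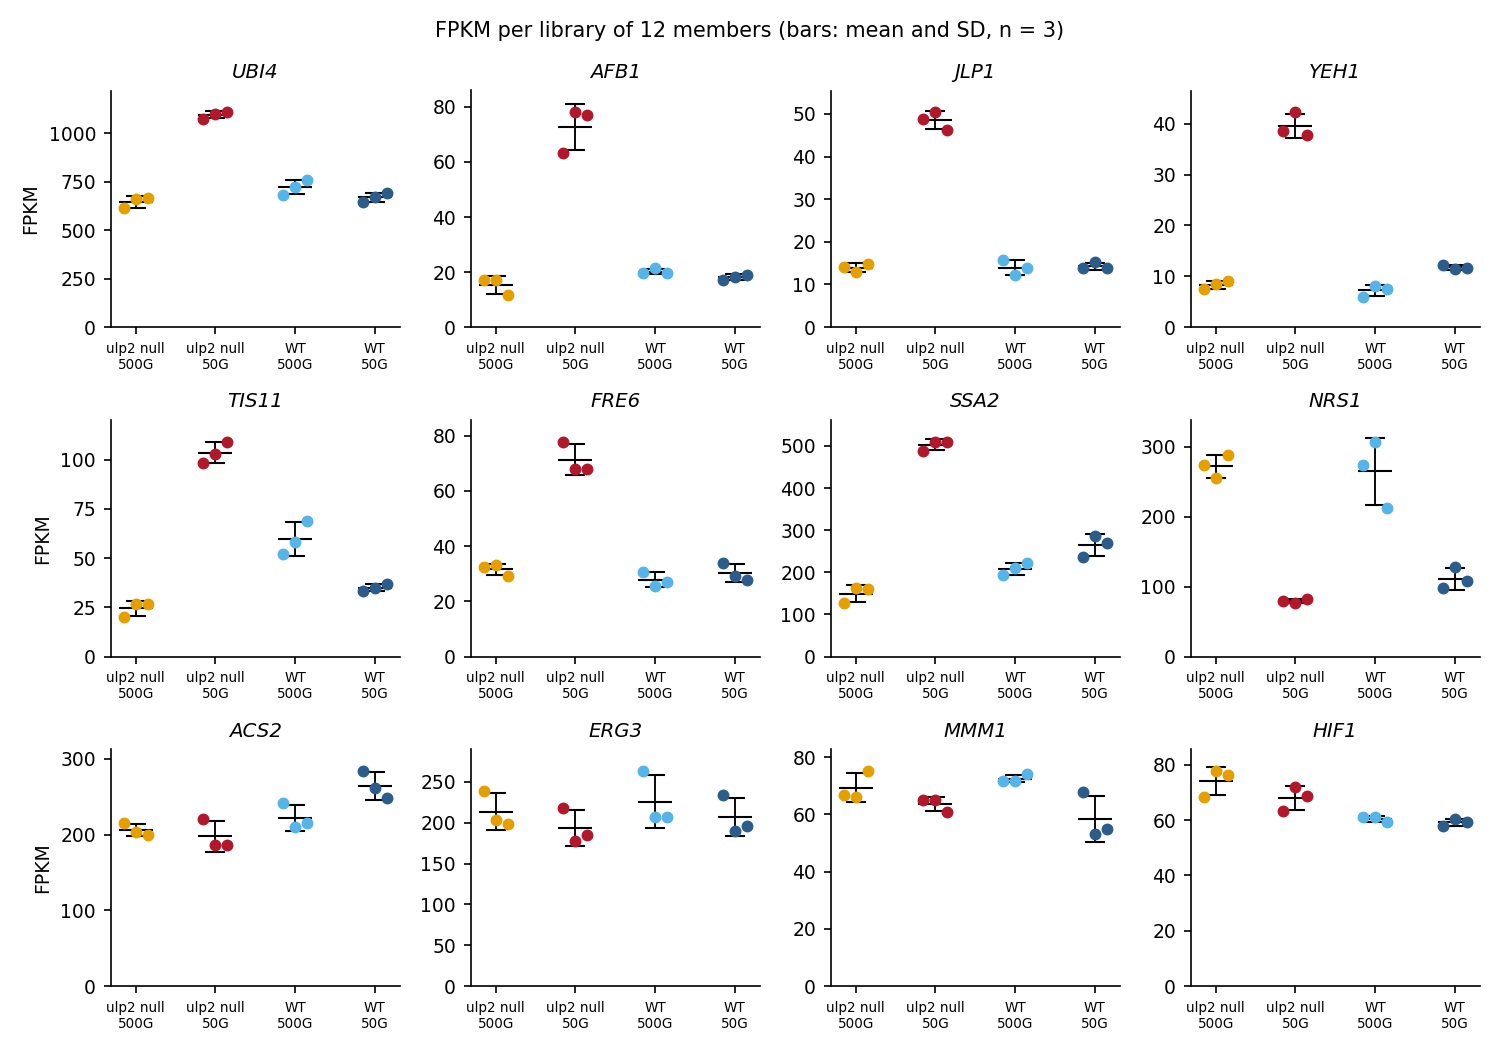
FPKM per library of 12 members, 3 libraries per group, with bars for the mean and SD. *UBI4* lies near the shared shift at 50G, *AFB1*, *JLP1*, *YEH1*, *TIS11* and *FRE6* departed above it, *SSA2* did not depart, and *NRS1*, *ACS2*, *ERG3*, *MMM1* and *HIF1* departed below it. In *NRS1* the *ulp2* null 50G libraries are at 76.1 to 82.4 FPKM, under the WT 50G libraries at 97.4 to 127.7.

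Members known for a part in iron handling did not move alike. They were put side by side after their values were seen, except *TIS11*, and were not tested as a group. *TIS11* encodes an mRNA-binding protein made in iron starvation that sends mRNAs of iron-using proteins to decay. It had 98.4, 102.8 and 109.2 FPKM in *ulp2* null 50G and 33.2, 34.8 and 37.0 FPKM in WT 50G libraries, and rose by 1.54 ± 0.12 (SE; limma, adjusted p = 4.83e-06). *FRE6*, which encodes a vacuolar ferric reductase induced by low iron, had 77.9, 68.0 and 68.0 FPKM in *ulp2* null 50G and 34.0, 29.2 and 27.9 FPKM in WT 50G libraries. It rose by 1.21 ± 0.099 (SE; limma, adjusted p = 6.18e-06). *TIS11* and *FRE6* departed above the shift, and the following did not depart. *FRE8*, similar in sequence to iron and copper reductases, rose by 1.11 ± 0.11, and *SMF3*, a metal transporter gene, by 0.63 ± 0.14 (SE). *ISA1*, whose mitochondrial product helps to build iron-sulfur proteins, changed by 0.24 ± 0.16 (SE) and did not pass the test (limma, adjusted p = 0.272). Aft1, the activator of the iron regulon, binds sites with the core TGCACCC. That core was searched on both strands in the 250 bases before and 50 after the annotated first base of each gene in the R64 genome (RefSeq), and no other motif searched overlapped it in the windows printed. It was present in 1.30% of 6001 windows and in 4 of the 187 windows of members. These 4 are printed because they include the windows of *TIS11* and *FRE6*, each 5′ to 3′ on the strand of the gene, with the core or its reverse complement GGGTGCA in capitals. The *FRE6* window is chrXII:39422-39721 (minus strand), with the core 142 bases before the first base. The *TIS11* window is chrXII:416609-416908 (minus strand), with a core 249 and another 173 bases before the first base. The *RKM5* window is chrXII:416756-417055 (plus strand). *RKM5*, a methyltransferase gene that acts on a ribosomal protein, is transcribed away from *TIS11*, and both windows hold the same pair of sites. The *THI73* window is chrXII:159456-159755 (minus strand), with the core 101 bases before the first base of this gene for a membrane transporter linked to thiamine.
FRE6: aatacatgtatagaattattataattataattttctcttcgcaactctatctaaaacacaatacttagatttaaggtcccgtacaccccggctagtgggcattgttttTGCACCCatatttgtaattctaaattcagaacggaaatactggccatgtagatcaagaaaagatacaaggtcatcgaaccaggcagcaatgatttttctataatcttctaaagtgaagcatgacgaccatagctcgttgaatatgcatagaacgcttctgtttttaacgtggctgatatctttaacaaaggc
TIS11: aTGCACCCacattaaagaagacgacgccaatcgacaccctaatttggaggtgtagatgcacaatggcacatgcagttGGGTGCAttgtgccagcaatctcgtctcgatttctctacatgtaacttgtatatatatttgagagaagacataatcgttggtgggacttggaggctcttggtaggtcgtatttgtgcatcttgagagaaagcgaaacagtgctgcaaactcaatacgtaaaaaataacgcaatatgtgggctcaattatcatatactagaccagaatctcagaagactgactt
RKM5: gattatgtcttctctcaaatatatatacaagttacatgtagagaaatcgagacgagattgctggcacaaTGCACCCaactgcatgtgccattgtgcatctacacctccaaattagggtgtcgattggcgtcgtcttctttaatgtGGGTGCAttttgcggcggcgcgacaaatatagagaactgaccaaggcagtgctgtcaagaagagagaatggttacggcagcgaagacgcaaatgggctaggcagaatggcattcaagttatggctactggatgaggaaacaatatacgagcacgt
THI73: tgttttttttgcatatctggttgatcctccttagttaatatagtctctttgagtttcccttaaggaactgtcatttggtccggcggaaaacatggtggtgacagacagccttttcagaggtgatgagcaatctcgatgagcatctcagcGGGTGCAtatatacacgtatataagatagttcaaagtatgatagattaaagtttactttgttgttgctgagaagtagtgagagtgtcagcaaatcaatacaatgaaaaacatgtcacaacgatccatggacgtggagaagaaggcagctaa

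The printed windows belong to genes with unlike changes at 50G. *TIS11* and *FRE6* departed above the shift, *RKM5* rose by 1.00 ± 0.11 and *THI73* by 0.71 ± 0.19 (SE), and neither of these departed. Of the 20 windows of members departing above, 2 held the core, and of the 9 windows of members departing below, 0 did. A match of letters is a description and not a measured site. Other motifs were searched in the same way. The stress response element, AGGGG, was in 21.6% of all windows and in 4 of the 20 windows above. The core of the heat shock element, TTCNNGAA, was in 12.9% of all windows and in 2 of those 20. The site of the amino acid starvation activator Gcn4, TGACTC, was in 7.98% of all windows and in 2 of those 20. The E box CACGTG, bound by Cbf1 and Pho4, was in 2.92% of all windows and in 0 of those 20. The motifs PAC and RRPE stand before many ribosome assembly genes. The PAC letters CGATGAG were in 7.02% of all windows and in 1 of those 20. The RRPE core was searched as AAAATTT and was in 23.2% of all windows and in 2 of those 20.

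By role, the shift ran through every list of members, and 142 of the 204 members were in at least 1 of 9 lists. All 24 members for nuclear gene expression rose, with a median log2 change of 0.69, between *HIF1* and, among members with a mean of at least 10 FPKM, *PRP19* at 1.31 ± 0.075 (SE). *PRP19* encodes a ubiquitin ligase of the spliceosome and had 71.5, 77.1 and 73.4 FPKM in *ulp2* null 50G and 27.2, 30.6 and 30.1 FPKM in WT 50G libraries. All 19 members for secretory and endosomal traffic and autophagy rose, with a median of 0.60. Their extremes were *PER33*, which encodes a membrane protein of the endoplasmic reticulum and nuclear pores (1.17 ± 0.24), and *PEP3*, which encodes a subunit of vacuolar tethering complexes (0.30 ± 0.079, SE). Of the 14 members for cell division and genome maintenance 13 rose, with a median of 0.61, from the telomere-capping gene *TEN1* (0.35 ± 0.17, not past the test) to the mismatch repair gene *MLH2* (1.15 ± 0.13, SE).

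The list for ribosome assembly and translation had the highest median, 0.91, and 13 of its 15 members rose. *STM1*, which encodes a factor that preserves idle ribosomes, had 752.8, 1071 and 1056 FPKM in *ulp2* null 50G and 265.8, 418.7 and 420.4 FPKM in WT 50G libraries, a change of 1.39 ± 0.25 (SE; limma, adjusted p = 0.00119). In that gene replicate 1 was the lowest library of both groups, and the groups did not overlap. *DPS1*, the cytoplasmic aspartyl-tRNA synthetase gene, had the smallest change of this list, 0.37 ± 0.18 (SE; limma, adjusted p = 0.144), and passed the test without *ulp2* null 500G replicate 1 in the fit (adjusted p = 0.0262). The 19 genes that the rule leaves out hold many other ribosome assembly and ribosomal protein genes, so this list does not cover those genes of the stretch. Of those 19 genes 15 rose (78.9%, against 18.7% of all tested genes) and 2 fell (10.5%, against 18.1%), with a median of 0.83.

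The list for the mitochondrion had the lowest median, 0.56, and 12 of its 15 members rose. Its extremes were *XDJ1*, which encodes a co-chaperone that aids import into mitochondria (1.43 ± 0.11, SE), and *MMM1*. Of 17 members for transport of nutrients, water and metals 15 rose, with a median of 0.81, from *GAL2* to *TIS11*. This list also holds genes that do not encode transporters, among them *TIS11* (an mRNA-binding protein) and *FRE6* (a ferric reductase). Of 17 metabolic enzymes 15 rose and *ACS2* fell, with a median of 0.70 and *JLP1* highest. For stress defence and protein quality control 12 of 13 members rose, with a median of 0.71, from *LOT6* to *SSK1*, a response regulator of osmosensing (1.01 ± 0.16, SE). For the cell wall and cell shape 8 of 11 rose, with a median of 0.67, from *RAX2* to the cell wall mannoprotein gene *PAU23* (1.36 ± 0.10, SE). The medians of the lists thus lay between 0.56 and 0.91, and the differences between them were not tested.

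**Figure D3:**
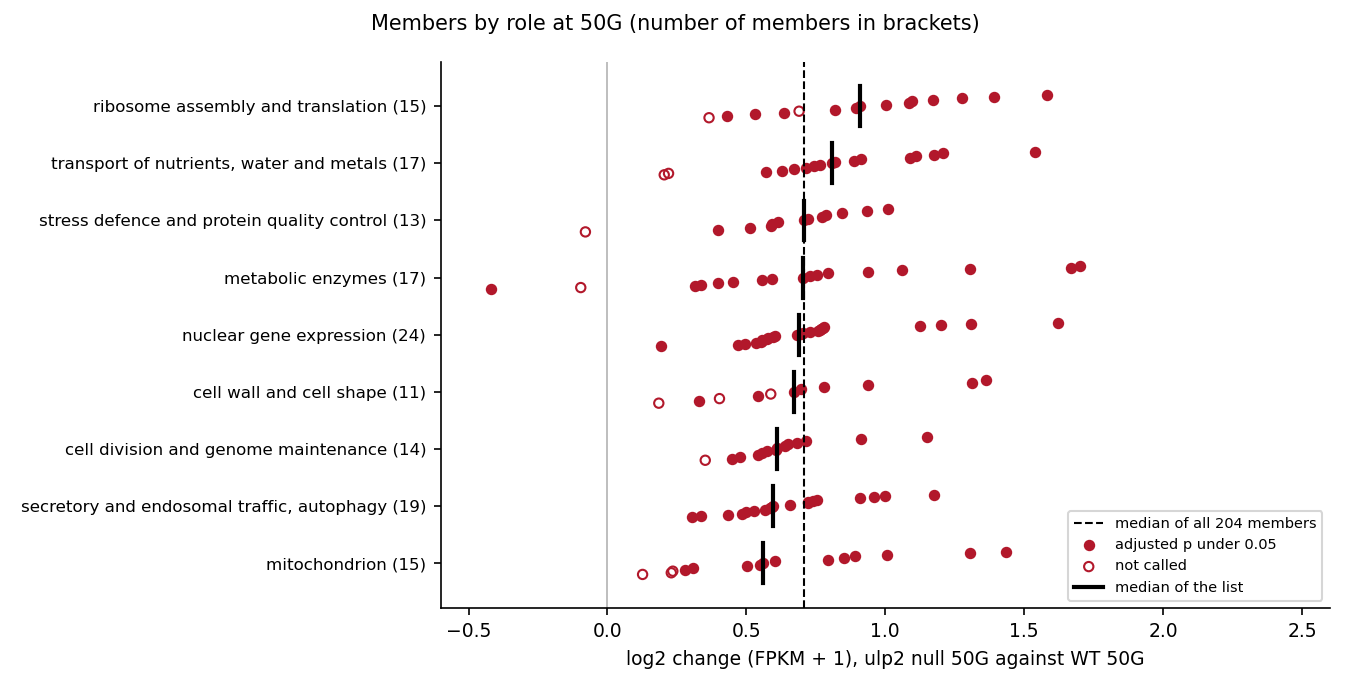
Log2 change of log2(FPKM + 1) in *ulp2* null 50G against WT 50G cells for the members of 9 role lists, 1 point per gene, filled where the adjusted p was under 0.05, with the list median as a thick line. List medians lie between 0.56 (mitochondrion) and 0.91 (ribosome assembly and translation), around the members' median of 0.71 (dashed).

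The medians by place, length and level lay between 0.58 and 0.84. The 60 members of the left arm had a median of 0.72 and the 144 members between the centromere and the rDNA had 0.69. In windows of 50 kb from the centromere the median ran between 0.58 (100 to 150 kb into the right arm, 26 genes) and 0.84 (the window 100 to 150 kb into the left arm, 16 genes). By mean FPKM, the median was 0.78 in the 68 lowest members, 0.72 in the middle 68 and 0.66 in the highest 68. As log2 ratios of the group means, without a pseudocount, these medians were 0.82, 0.73 and 0.65. By coding length it was 0.72 in the 63 shortest, 0.71 in the middle 63 and 0.64 in the 63 longest. Spearman's rho across members was -0.12 with mean FPKM (204 genes), -0.14 with coding length (189 genes) and -0.08 with position (189 genes). Genes are not independent replicates, and these values come from the same 12 libraries. Departing members of both kinds lay on both arms, 9 above and 2 below on the left arm and 18 above and 7 below on the right.

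**Figure D4:**
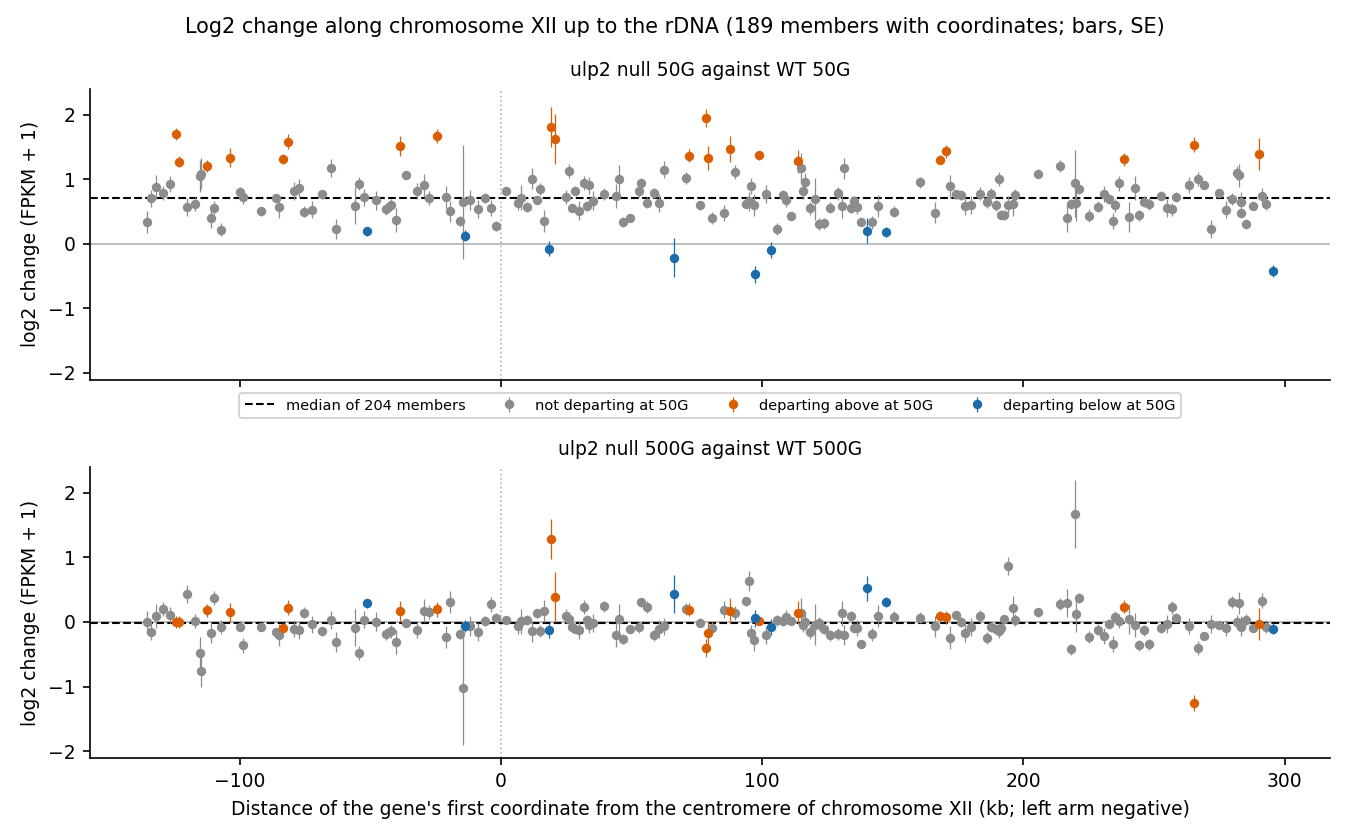
Log2 change of each of the 189 members with coordinates (points, bars SE) against the distance of its midpoint from the centromere in kb, left arm negative. The axis label names the first coordinate, but the midpoint is plotted. The upper panel is *ulp2* null 50G against WT 50G and the lower panel *ulp2* null 500G against WT 500G. The dashed line is the members' median, 0.71 in the upper and -0.02 in the lower panel, and colours mark members that departed from the median at 50G.

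Over passaging, the members came back down in *ulp2* null cells. In *ulp2* null 500G against *ulp2* null 50G cells the members' median log2 change was -0.75, against -0.05 over all tested genes. Of the 204 members 166 fell, against 29.7% of all tested genes, and 5 rose, against 24.5% of all tested genes. For 169 members all 3 of the 500G libraries lay under all 3 of the 50G libraries, which held for 33.6% of all tested genes. This comparison and the one at 50G share the *ulp2* null 50G libraries, so a member that is high in them by chance moves in opposite directions in both, and each is given for its own values only. The members were spread wider here than at 50G, with quartiles at -1.15 and -0.45 and an interquartile range of 0.70 against 0.39. So were the genes of the 14 other chromosomes, at 0.68 against 0.43. *UBI4* had 611.3, 662.2 and 664.9 FPKM in *ulp2* null 500G libraries, against 1073 to 1108 FPKM in *ulp2* null 50G libraries, and fell by 0.76 ± 0.063 (SE; limma, adjusted p = 3.43e-06).

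The 4 named members that fell furthest had lost most of their 50G level. *AFB1* had 17.1, 17.0 and 11.6 FPKM in *ulp2* null 500G libraries, against 63.1 to 78.2 FPKM at 50G, and fell to 0.218-fold (log2 SE 0.14; limma, adjusted p = 4.85e-07). *YLR120W-A* fell by 2.14 ± 0.37 and *YEH1* by 2.12 ± 0.11 (SE). *YEH1* had 7.50, 8.48 and 9.08 FPKM at 500G. *NFG1*, which encodes a negative regulator of filamentous growth, had 4.99, 5.79 and 6.87 FPKM in *ulp2* null 500G and 34.2, 24.1 and 25.8 FPKM in *ulp2* null 50G libraries, and fell by 2.07 ± 0.19 (SE; limma, adjusted p = 6.74e-06). In these genes every 500G library was under every 50G library.

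Against the general fall, *NRS1* had 273.0, 254.8 and 287.8 FPKM in *ulp2* null 500G and 79.3, 76.1 and 82.4 FPKM in *ulp2* null 50G libraries, a rise of 1.76 ± 0.13 (SE; limma, adjusted p = 1.83e-06). *XYL2*, which encodes xylitol dehydrogenase, had 122.0, 109.6 and 126.9 FPKM in *ulp2* null 500G and 72.2, 85.3 and 81.4 FPKM in *ulp2* null 50G libraries, a rise of 0.58 ± 0.088 (SE; limma, adjusted p = 0.000261). *PCD1*, which encodes an enzyme that clears oxidized nucleotides, had 177.1, 189.0 and 192.9 FPKM in *ulp2* null 500G and 172.1, 137.7 and 128.4 FPKM in *ulp2* null 50G libraries. Its change of 0.36 ± 0.12 (SE; limma) had an adjusted p of 0.0254, which ran between 0.00447 and 0.0991 over the alternatives. Without *ulp2* null 50G replicate 2 or 3, or *ulp2* null 500G replicate 2 or 3, *PCD1* did not pass the test. *YLL019W-A*, an ID outside the annotation, had a change of 0.81 ± 0.64 (SE), with overlapping groups.

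By role, the falls over passaging in *ulp2* null cells again ran through every list. Of the members for nuclear gene expression 21 of 24 fell, with a median of -0.72. For ribosome assembly and translation 13 of 15 fell, with a median of -0.94, for the mitochondrion 13 of 15 (-0.76) and for cell division 13 of 14 (-0.58). Among metabolic enzymes 14 of 17 fell and 1 rose (median -0.87), and in transport 14 of 17 fell (median -0.87). In stress defence 11 of 13 fell (median -0.76), and for the cell wall 8 of 11 fell (median -0.74). The list for secretory and endosomal traffic had the smallest median, -0.52, with 12 of 19 lower and 2 higher.

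The passaged WT cells give the background for this comparison. In WT 500G against WT 50G cells the members' median was -0.0005, 41 members rose, against 21.4% of all tested genes, and 44 fell, against 19.2% of all tested genes. These counts are 20.1% and 21.6% of the members, near the share over all genes. Some of the members that rose in *ulp2* null cells over passaging also rose in WT cells. *NRS1* had 273.8, 307.2 and 212.5 FPKM in WT 500G and 97.4, 127.7 and 108.2 FPKM in WT 50G libraries, a rise of 1.24 ± 0.13 (SE; limma, adjusted p = 5.52e-05). *XYL2* rose by 1.00 ± 0.088 and *PCD1* by 0.78 ± 0.12 (SE), and *EMP46*, which encodes a lectin-like protein of transport vesicles, by 0.85 ± 0.061 (SE). The named members that fell in WT cells were *YLR012C* (by 1.41 ± 0.31), *YLR112W* (by 1.18 ± 0.27), *YLR108C* (by 1.12 ± 0.21) and *RAX2* (by 1.01 ± 0.078, SE). By role in WT cells, 8 members rose and 0 fell of 19 for secretory and endosomal traffic (median 0.20). For the mitochondrion 1 rose and 7 fell of 15 (-0.12), for metabolic enzymes 3 rose and 8 fell of 17 (-0.17), and for stress defence 0 rose and 4 fell of 13 (-0.09). In the other lists the counts were near even, with 4 up and 4 down each for nuclear gene expression (0.02) and transport (-0.12). Cell division had 4 up and 3 down (0.03), and ribosome assembly (0.05) and the cell wall (-0.11) had 3 up and 2 down each. Differences between lists were not tested. *RAX2* had 7.63, 6.95 and 7.20 FPKM in WT 500G and 16.2, 15.4 and 15.3 FPKM in WT 50G libraries, with no overlap.

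The change over passaging differed between the strains. The difference, that is the change from 50G to 500G in *ulp2* null cells minus the same change in WT cells, was tested as the interaction of strain and passage. The same value is the change between the strains at 500G minus that at 50G, so it largely restates the shift at 50G. It was below 0 for 195 of 204 members, with a median of -0.73, against -0.02 over all tested genes. Past the test 145 members were lower, against 13.0% of all tested genes, and 0 were higher, against 9.74% of all tested genes. On chromosome XII right of the rDNA 60.5% of genes were lower (median -0.64), and on chromosome I 47.4% (median -0.66). In limma's test 2 members were higher at an unadjusted p under 0.05. *TIS11* had the most negative value of the named members, -2.80 ± 0.17 (SE; limma, adjusted p = 1.22e-05). Its level was 20.1, 26.5 and 26.7 FPKM in *ulp2* null 500G and 98.4 to 109.2 FPKM in *ulp2* null 50G libraries. In WT cells it was 52.0, 58.4 and 68.8 FPKM at 500G and 33.2 to 37.0 FPKM at 50G, so that the strains moved in opposite directions. *AFB1* had a value of -2.35 ± 0.19, with 19.5 to 21.3 FPKM in WT 500G and 17.0 to 19.1 FPKM in WT 50G libraries. *AQY2*, which encodes a water channel and overlaps *YLL053C* in the annotation, had a value of -1.84 ± 0.35, and *YLR041W* had -1.77 ± 0.31 (SE).

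By 500 generations little was left of the shift between the strains. In *ulp2* null 500G against WT 500G cells the members' median was -0.02, against -0.03 over all tested genes, with quartiles at -0.13 and 0.13. Past the test 9 members rose, against 4.90% of all tested genes, and 7 fell, against 6.06% of all tested genes, which are 4.41% and 3.43% of the members. No role list had more than 3 members called in this comparison. These counts depended on the fit. With only the libraries of these groups in the fit 0 rose and 2 fell in limma's test. Without WT 500G replicate 2 there were 2 higher and 4 lower. Without *ulp2* null 500G replicate 1 or WT 500G replicate 3 there were 4 higher, and without *ulp2* null 500G replicate 3 there were 3.

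*TIS11* fell furthest among the members at 500G, by 1.26 ± 0.12 (SE; limma, adjusted p = 0.000166), and it passed the test under every alternative tried. All *ulp2* null 500G libraries lay under all WT 500G libraries in that gene. *RKM5*, beside it, fell by 0.41 ± 0.11 (SE; limma, adjusted p = 0.0351), with 14.3, 17.4 and 15.7 FPKM in *ulp2* null 500G and 22.2, 23.6 and 18.2 FPKM in WT 500G libraries. *SSA2*, a cytosolic Hsp70 chaperone gene, had 126.2, 162.4 and 160.5 FPKM in *ulp2* null 500G and 192.9, 210.7 and 221.2 FPKM in WT 500G libraries, a fall of 0.48 ± 0.11 (SE; limma, adjusted p = 0.018). *AHP1*, which encodes a peroxiredoxin, had 636.2, 709.1 and 674.6 FPKM in *ulp2* null 500G and 880.1, 958.7 and 875.8 FPKM in WT 500G libraries, a fall of 0.43 ± 0.079 (SE; limma, adjusted p = 0.00739). *SSA2*, *AHP1* and *RKM5* had risen at 50G in *ulp2* null cells, by 0.93, 0.61 and 1.00. With only the libraries of these groups in the fit, the adjusted p (limma) was 0.105 for *SSA2*, 0.0509 for *AHP1* and 0.164 for *RKM5*. The call of *SSA2* was also lost without WT 500G replicate 2 or 3. That of *RKM5* was lost without any of 6 libraries in turn.

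Of the members that rose at 500G, *YLR012C* changed by 1.28 ± 0.31, at 7.18, 4.97 and 9.31 FPKM in *ulp2* null 500G and 2.57, 0.995 and 3.91 FPKM in WT 500G libraries. *EMA19*, which encodes a protein of the endoplasmic reticulum that helps sort mitochondrial precursors, changed by 0.64 ± 0.15 (SE). It had 122.9, 94.4 and 90.0 FPKM in *ulp2* null 500G and 75.8, 65.9 and 54.8 FPKM in WT 500G libraries. *HOG1*, the osmotic stress kinase gene, changed by 0.37 ± 0.075 (SE; limma, adjusted p = 0.0113), with 68.3, 73.5 and 80.6 FPKM in *ulp2* null 500G and 55.3, 55.3 and 60.0 FPKM in WT 500G libraries. *LDB18*, a dynactin subunit gene, changed by 0.37 ± 0.10 (SE). These 4 passed the test in the fit over all groups, and none did with only the libraries of these groups in the fit (adjusted p between 0.0843 and 0.160, limma). Leaving out single libraries also ended the calls of *YLR012C* (*ulp2* null 500G replicate 1 or 3, WT 500G replicate 2), *EMA19* (*ulp2* null 500G replicate 1, WT 500G replicate 2 or 3) and *LDB18* (any of 9 libraries in turn).

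The members that departed at 50G were looked up between the strains at 500G. There, 4.90% of all tested genes were called higher and 6.06% lower. The comparisons at 50G and at 500G share no library, but both take each gene's spread from the same fit over all groups. For the 27 members departing above, the median change at 500G was 0.15, between -1.26 and 1.28, and 2 of them passed the test there, *TIS11* and *YLR012C*. For the 9 departing below it was 0.05, between -0.13 and 0.52, and 2 passed, *HIF1* (0.29 ± 0.068) and *RAX2* (0.31 ± 0.078, SE). For the 168 others it was -0.04, and 12 passed. Across the 204 members, Pearson's r between the changes at 50G and at 500G was 0.05 and Spearman's rho was 0.17, as a description across genes. In all, 156 members (76.5%) rose at 50G and fell in *ulp2* null cells by 500G, against 15.2% of all tested genes. Of these, 144 (70.6% of members) were not called between the strains at 500G, against 13.4% of all tested genes. Both of the first comparisons use the *ulp2* null 50G libraries, as stated.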

How the data were processed

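RNA from 12 yeast cultures was sequenced from strand-specific libraries. The methods name total RNA and the sample labels polyA RNA. The authors trimmed the reads, mapped them with TopHat2 2.1.1 to the Ensembl R64 genome, used uniquely mapped reads in Cuffdiff (Cufflinks 2.2.1, with bias correction) and deposited 1 table of FPKM values. FPKM scales fragments by transcript length and library size, holds no counts, and gives neither a depth nor a counting interval. All 12 columns were matched to samples by their labels, and 0 per-sample columns were left unused.

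The test was run on log2(FPKM + 1) by limma 3.58.1 in R 4.3.3, in 1 linear model over 4 groups, with empirical Bayes and a trend, over the 6572 genes whose mean reached 1 FPKM. The pseudocount of 1 makes changes of low genes smaller. P-values were two-sided and adjusted by the Benjamini-Hochberg method over all tested genes, with a threshold of 0.05. Cuffdiff's own test needs the alignments and was not run. Intervals of departures cover 95% and leave out the error of the median. Gene names, coordinates and promoter windows came from RefSeq for R64, with gene models that hold coding lengths. A further motif that was searched is not reported here. Tables were made in python 3.11.15 with pandas 2.3.3 and numpy 2.4.6. The code was tested on simulated data.

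The members, the role lists and the tests were chosen with earlier results of these data known. Named genes were, among members with a mean of at least 10 FPKM, the 8 that departed most each way at 50G and the 4 that did so over passaging in *ulp2* null cells, the 3 members with a mean of at least 100 FPKM nearest to the median, the 4 highest and 4 lowest calls of each other comparison (for pairs of groups, without overlap), and the extremes of each role list. The genes on each side of the level threshold were also named. *FRE6*, *FRE8*, *SMF3*, *ISA1*, *THI73*, *YLR076C*, *YLR035C-A*, *YLR149C-A* and the ribosomal protein genes were named after their values were seen. The alternatives were another pseudocount, no filter or a mean of at least 10 FPKM, only the groups compared, a replicate block, median-of-ratios scaling, centring on chromosomes other than I and XII, no trend, a stricter threshold, each library left out, and the left-out genes counted. The ratio of group means and the annotated members alone were added after the data were seen.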

Additional observations from a re-analysis of the deposited data

Results flagged for a closer look

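The response to passaging was a different one in the 2 strains for most genes left of the rDNA. The interaction of strain and passage was past the threshold and negative for 145 of 204 members (limma), against 13.0% of all tested genes. In these members the log2 change from 50 to 500 generations was lower in *ulp2* null than in WT cells, whichever way the WT cells moved. In the same test 60.5% of the genes of chromosome XII right of the rDNA were lower, and 47.4% of those of chromosome I. The stretch was proposed with these results known, so the members' count is a description. This test uses all 12 libraries. Its value is also the log2 change between the strains at 500G minus that at 50G. The members' medians of these were -0.02 and 0.71, so the count largely restates the shift at 50G. The named members with the most negative values were *TIS11* at -2.80, *AFB1* at -2.35, *AQY2* at -1.84 and *YLR041W* at -1.77 on the log2 scale. *AQY2* had 14.2, 7.99 and 6.17 FPKM in *ulp2* null 500G and 39.1, 34.7 and 34.5 FPKM in *ulp2* null 50G libraries, and in WT libraries 13.8, 21.0 and 13.5 FPKM at 500G and 18.4, 14.6 and 16.4 FPKM at 50G. Only in *TIS11* of these 4 did the change in WT cells itself pass the test, with a rise of 0.75 ± 0.12 (SE; limma, adjusted p = 0.000749). Groups of 3 libraries were not searched for outlying samples.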

How the results depend on the processing

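Few results moved. For *ulp2* null 500G against WT 500G, the 9 higher and 7 lower members became 0 and 2 with only the groups compared, and 1 and 3 at an adjusted p under 0.01. At that threshold the 44 members lower in WT 500G than in WT 50G cells became 27. The median change at 50G was 0.73 with a pseudocount of 0.1 and 0.75 after centring on chromosomes other than I and XII, against 0.71. Leaving out each library gave medians of 0.70 to 0.73, 163 to 177 members higher at 50G, 23 to 27 departing above and 9 to 10 below, 155 to 167 lower over passaging in *ulp2* null cells, 126 to 140 lower in the interaction, 31 to 43 higher and 32 to 45 lower over passaging in WT cells, and 2 to 11 higher and 4 to 8 lower between the strains at 500G. With the replicate block, 15 members were higher and 19 lower at 500G. The labels do not say that a number marks a shared line or day, and in each of the 4 comparisons of groups at least 1 same-numbered pair correlated at under 0.1 in its deviations from the group means, so the numbers were not read as pairs. The correlations were 0.16, -0.07 and 0.07 for *ulp2* null 500G with WT 500G and 0.05, 0.07 and -0.0043 for *ulp2* null 50G with WT 50G. Between groups not compared here they were 0.14, 0.11 and 0.14 (*ulp2* null 500G with WT 50G) and 0.10, 0.18 and 0.20 (*ulp2* null 50G with WT 500G). The block changed 3 of 58 calls of named genes, all at 50G, where *FYV7* (adjusted p = 0.00366, limma), *DPS1* (0.0330) and *TEN1* (0.0401) gained the call. Over all alternatives, 1100 of 1156 values of named genes kept direction and side of the threshold, 47 lost the call, 9 gained it and 0 reversed. FPKM values without counts do not show how depth limits the low members.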
